A study of Homo sapiens with 8 samples.

Results

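The nuclear genes of oxidative phosphorylation are the genes of the cell nucleus that encode the protein subunits of the 5 enzyme complexes of the mitochondrial inner membrane. They were chosen by symbol: protein-coding rows named NDUFA, NDUFB, NDUFC, NDUFS or NDUFV with a number, SDHA to SDHD, UQCR, CYC1, the COX4I to COX8A subunits, and ATP5F1, ATP5M, ATP5P or ATP5IF1. The rule took 86 of the 28395 rows of the deposited table, of which 19175 were protein-coding. The 86 comprised 36 genes of complex I, 4 of complex II, 10 of complex III, 16 of complex IV and 20 of complex V. A further 2 rows that matched by name but were not protein-coding were left out. Polyadenylated RNA was sequenced from A-498 cells, an established line of human kidney cancer. Control 1 and Control 2 carried 2 different non-targeting guides and are labelled as wild type controls, and ANXA4 KO-1 and ANXA4 KO-2 carried 2 different guides against ANXA4, the gene of the calcium-dependent phospholipid-binding protein annexin A4. Each of the 4 lines had 2 replicates, 8 libraries in all, taken from cultures 24 hours after equal numbers of cells were seeded. The labels do not say whether a line was 1 clone or a pool, nor whether the replicates were separate cultures, so p-values measure only the spread between these libraries, which may be technical.

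The libraries held between 15784890 and 22631588 assigned reads. ANXA4, the targeted gene, was at 2821 and 3614 normalised reads in Control 1, 3858 and 6773 in Control 2, 235.6 and 234.4 in KO-1, and 3433 and 4142 in KO-2. ANXA4 mRNA was therefore low in the KO-1 libraries and within the range of the controls in the KO-2 libraries (log2 difference to both controls −0.10 ± 0.22 SE, limma adjusted p = 0.818). An edited gene can still be transcribed and no protein was measured here, so the second line is called by its label, KO-2, throughout. Of the kidney epithelial markers, PAX8 lay between 2987 and 4476 normalised reads, KRT8 between 16747 and 31461 and KRT18 between 6032 and 13291. KRT8 and KRT18, 2 of 7 such markers, were higher in KO-2 than in the controls (log2 0.64 and 0.66, limma adjusted p = 0.0214 and 0.0224). In that comparison limma called 11.2% of all genes tested. KRT8 and KRT18 also lay above every control in KO-1, at 28150 and 24452 and at 11355 and 11228. limma called neither of them there. The T cell marker CD3E and the endothelial marker CDH5 had 0 reads in every library, and PTPRC, PECAM1, ALB and HBB had at most 9.19.

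In oxidative phosphorylation, complex I (NADH dehydrogenase) and complex II (succinate dehydrogenase) take electrons from NADH and succinate and pass them through ubiquinone to complex III and, by cytochrome c, to complex IV (cytochrome c oxidase), which reduces oxygen. Complexes I, III and IV pump protons across the inner membrane, and complex V (ATP synthase) uses their return flow to make ATP. All except complex II also hold subunits encoded in mitochondrial DNA, so their assembly needs products of both genomes. In clear cell kidney cancer the loss of VHL stabilises hypoxia-inducible factors, which are known to lower mitochondrial respiration and to switch some respiratory subunits to other isoforms.

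Promoters of respiratory subunits are textbook targets of NRF1, of ETS factors such as GABPA, and of YY1. RefSeq windows of 300 bases (250 before to 50 after an annotated start, GRCh38.p14) were at hand for 68 of the 86 genes, in 81 windows because some genes have several starts. The NRF1 motif GCGCATGC, on either strand, stood in 15 of the 81 windows (18.5%) against 3.05% of all 35116 windows. Its core TGCGCA, which reads the same on both strands and can overlap the longer motif, stood in 21 (25.9% against 8.24%). The ETS motif CCGGAAG stood in 22 (27.2% against 10.3%), the YY1 motif AANATGGC in 28 (34.6% against 6.58%) and the CREB motif TGACGTCA in 5 (6.17% against 1.85%). Among windows of protein-coding genes the shares were 3.78% and 9.99% for the NRF1 motif and its core, 12.97% for ETS, 7.44% for YY1 and 2.28% for CREB. A match is a description of letters and not a binding site. Shown here is sequence before the first exon for 3 genes that differed between the KO lines, and for SDHB, the iron-sulphur subunit of complex II, whose window held all 5 motifs. Each stretch is 5′ to 3′ on the strand of the gene, free of GENCODE 29 exons, with matches to these motifs in capitals.
NDUFV3, chr21:42893115-42893264, plus strand: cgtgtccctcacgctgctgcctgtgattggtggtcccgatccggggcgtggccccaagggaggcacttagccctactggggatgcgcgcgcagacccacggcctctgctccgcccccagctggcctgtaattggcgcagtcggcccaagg
ATP5PO, chr21:33915981-33916054, minus strand: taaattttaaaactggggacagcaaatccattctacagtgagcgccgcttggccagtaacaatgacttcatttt
UQCR10, chr22:29767219-29767368, plus strand: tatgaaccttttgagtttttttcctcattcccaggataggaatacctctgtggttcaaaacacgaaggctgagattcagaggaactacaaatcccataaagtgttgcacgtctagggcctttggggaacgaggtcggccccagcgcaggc
SDHB, chr1:17054171-17054282, minus strand: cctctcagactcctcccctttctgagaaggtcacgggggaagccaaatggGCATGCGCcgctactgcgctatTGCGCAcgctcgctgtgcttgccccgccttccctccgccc
The printed stretches of NDUFV3, ATP5PO and UQCR10 held none of the 5 motifs, but the whole windows of ATP5PO and UQCR10 each held a YY1 motif. ATP5PF and ATP5MF, also called between the KO lines, are not shown, and a window of ATP5PF held NRF1, ETS and YY1 motifs. In SDHB the NRF1 motif lay 200 to 193 bases before the annotated start and the core 178 to 173 bases before it.

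Most subunit mRNAs were abundant in every library. Per kilobase of mRNA (the principal GENCODE 29 transcript), the highest level in complex I was that of NDUFS5, a small accessory subunit, at 7432 ± 1362 normalised reads per kilobase (SD over the 8 libraries). SDHA, the flavoprotein that oxidises succinate, led complex II at 1450 ± 125. UQCRH, the hinge protein between cytochrome c1 and cytochrome c, led complex III at 4745 ± 602. COX4I1, the main form of the regulatory subunit 4, led complex IV at 9135 ± 1653, and ATP5MF, subunit f of the membrane part of ATP synthase, led complex V at 7928 ± 1443. The lowest levels among tested genes were 62.0 ± 13.2 for NDUFC2 in complex I, 107 ± 16.1 for SDHC in complex II, 62.1 ± 10.1 for UQCRHL in complex III, 477 ± 100.5 for COX7B in complex IV and, in complex V, 643 ± 72.4 for ATP5F1A, leaving aside ATP5F1E (listed at 4.55 ± 2.05), whose counts are not read as a level. SDHC encodes a membrane anchor, and its principal transcript has 13566 bases, so its level per length depends on which of its transcripts is taken. NDUFC2 overlaps the readthrough gene NDUFC2-KCTD14, which had 0 reads in every library. Whether that overlap lowers the listed counts of NDUFC2 was not tested, so its rank in complex I is that of the table only.

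The filter for testing (at least 10 normalised reads in at least 2 libraries) passed 77 of the 86 genes: 34 of complex I, all of complexes II and III, 11 of complex IV and 18 of complex V. The isoforms that did not pass are those known from other tissues. COX4I2, the lung form of subunit 4, had at most 1.03 normalised reads against 5441 to 9192 for COX4I1. COX6A2, the heart and muscle form, had at most 1.84 against 2024 to 3200 for COX6A1, and COX7A1, another muscle form, at most 6.02 against 942.4 to 1350 for COX7A2 and 1266 to 1728 for COX7A2L. COX6B2, a testis form, had 2.27 to 8.32 against 1662 to 2914 for COX6B1, and COX7B2 had 0 reads in every library against 945.4 to 1666 for COX7B. A count of 0 allows up to 3.62 normalised reads (3 reads in the library with the smallest size factor), which covers counting error only. ATP5MGL had at most 1 read, and the readthrough gene ATP5MF-PTCD1 had 0. Complex IV mRNA in these cells was thus that of the general isoforms in all 4 lines.

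Some subunits that every respiring cell needs were also listed near 0. NDUFA6, an accessory subunit of the matrix arm of complex I, had 0 reads in 5 libraries and at most 1.21 normalised reads in the others. NDUFA3 had between 0 and 13.3, and the overlapping gene TFPT had at most 13.5. ATP5F1E, the epsilon subunit of ATP synthase, had 6.26 to 28.97 and passed the filter, and the readthrough gene SLMO2-ATP5E that covers it had 0. The cause was not tested, and these 3 values are not read as levels of the mRNAs. RefSeq annotates 122 pseudogenes under names of this rule, UQCRHL is an intronless copy of UQCRH, and reads of such copies may be split between loci.

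**Figure D1:**
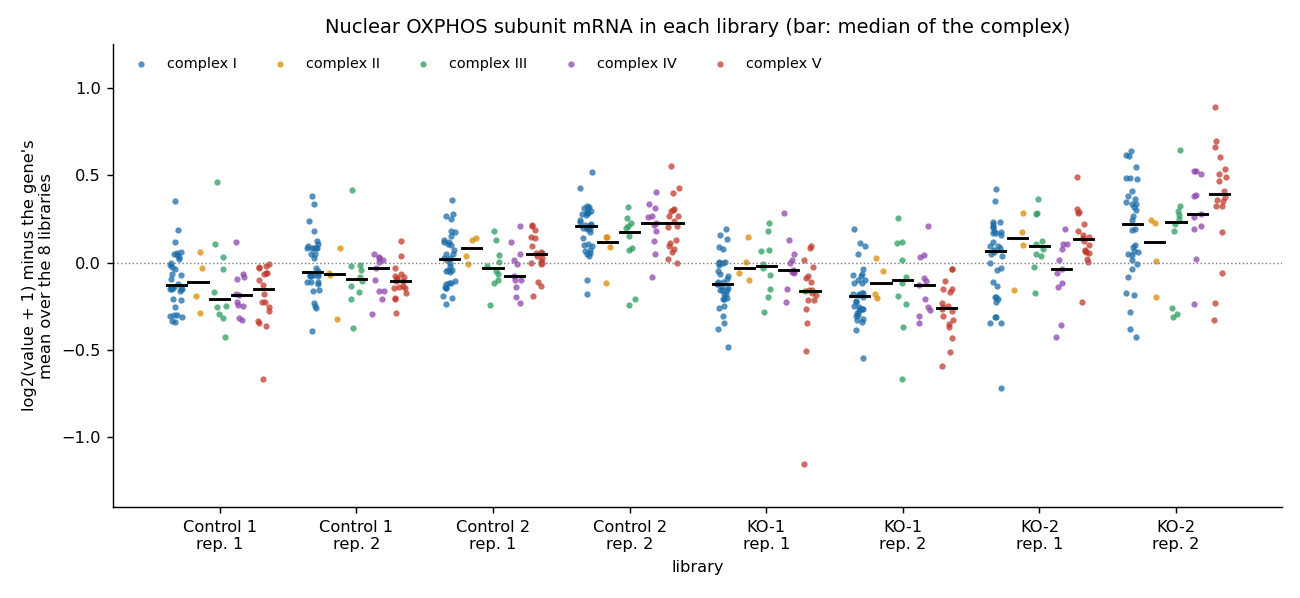
Each point is 1 of the 77 tested subunit genes, placed by library and coloured by complex, with its log2(value + 1) minus its own mean over the 8 libraries on the vertical axis; bars are medians of a complex. The medians of all 5 complexes lie below 0 in both Control 1 and both KO-1 libraries and above 0 in the second replicates of Control 2 and KO-2.

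The subunit mRNAs differed in median from library to library. The median deviation of the 77 genes from their own means was −0.15 and −0.07 on the log2 scale in the replicates of Control 1, 0.01 and 0.21 in Control 2, −0.09 and −0.19 in KO-1, and 0.08 and 0.27 in KO-2. In the second KO-2 library 61 of 77 genes stood above their own mean, in the second Control 2 library 70, and in the second KO-1 library 12. In the first Control 2 library 41 genes stood above it and in the first KO-2 library 53. By the median, the lowest and the highest library were both from lines labelled ANXA4 KO. Together the 86 genes took between 0.687% and 0.823% of the reads.

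Complex V spanned the widest range of medians, from −0.26 in the second KO-1 library to 0.39 in the second KO-2 library. Its summed normalised reads were 43160 and 39766 in KO-1, 42042 and 41975 in Control 1, 48442 and 51310 in Control 2, and 49156 and 52339 in KO-2. For complex V, the KO-1 sums thus lay nearer to those of Control 1 and the KO-2 sums nearer to those of Control 2. Complex II had the narrowest range of medians, from −0.12 to 0.14. The 13 subunits encoded in mitochondrial DNA summed to 668751 in the first library of Control 1 and 1798570 in the second of KO-2, and mitochondrial genes took between 4.67% and 13.8% of the reads, with 9.05% the next highest, in the second library of Control 2. The same 2 libraries, the second of KO-2 and of Control 2, held the highest levels of nuclear and of mitochondrial subunit mRNA. Whether calls depended on single libraries is described below. In bulk RNA, fewer expressing cells and less RNA per cell cannot be told apart.

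The first comparison asked whether subunit mRNA differed between the 4 libraries labelled ANXA4 KO and the 4 controls. None of the 77 genes passed limma's test at an adjusted p under 0.05, against 33 of all 14040 genes tested (0.235%). The median difference of the subunit genes was −0.01 (log2), with 34 of 77 above 0, and 5 had an unadjusted p under 0.05 (6.49%, against 11.5% of all genes). edgeR's quasi-likelihood test and DESeq2 also called 0, against 1.32% and 6.05% of all genes. By complex the medians were −0.02 for complex I, −0.02 for II, 0.09 for III, 0.04 for IV and −0.01 for V. Blocking on the replicate number left the count at 0, against 0.264% of all genes.

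The largest values in this comparison belonged to complexes I and III, and are given as values that did not pass the test. NDUFB4, an accessory subunit of the membrane arm of complex I, was at 1928, 2207, 1724 and 2278 in the controls and at 1552, 1576, 1030 and 1595 in the KO libraries, a log2 difference of −0.51 ± 0.21 SE (adjusted p = 0.381). NDUFC2 had a difference of −0.41 ± 0.21 (adjusted p = 0.505), and NDUFB5 of −0.38 ± 0.15 (adjusted p = 0.374). In the other direction NDUFB10 had 0.37 ± 0.19 (adjusted p = 0.503), UQCRC2, a core protein of complex III, 0.35 ± 0.14 (adjusted p = 0.352), and UQCRHL 0.32 ± 0.20 (adjusted p = 0.604). For NDUFB4, NDUFB5, NDUFB6, NDUFA8 and UQCRC2 the 4 KO libraries did not overlap the 4 controls. That is 5 of 77, against 10.6% of all tested genes. If the spread is taken within lines only, limma called 3 genes (NDUFB5 and NDUFA8 lower, UQCRC2 higher) against 10.5% of all genes, but that fit does not count the difference between lines of 1 arm as error.

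**Figure D2:**
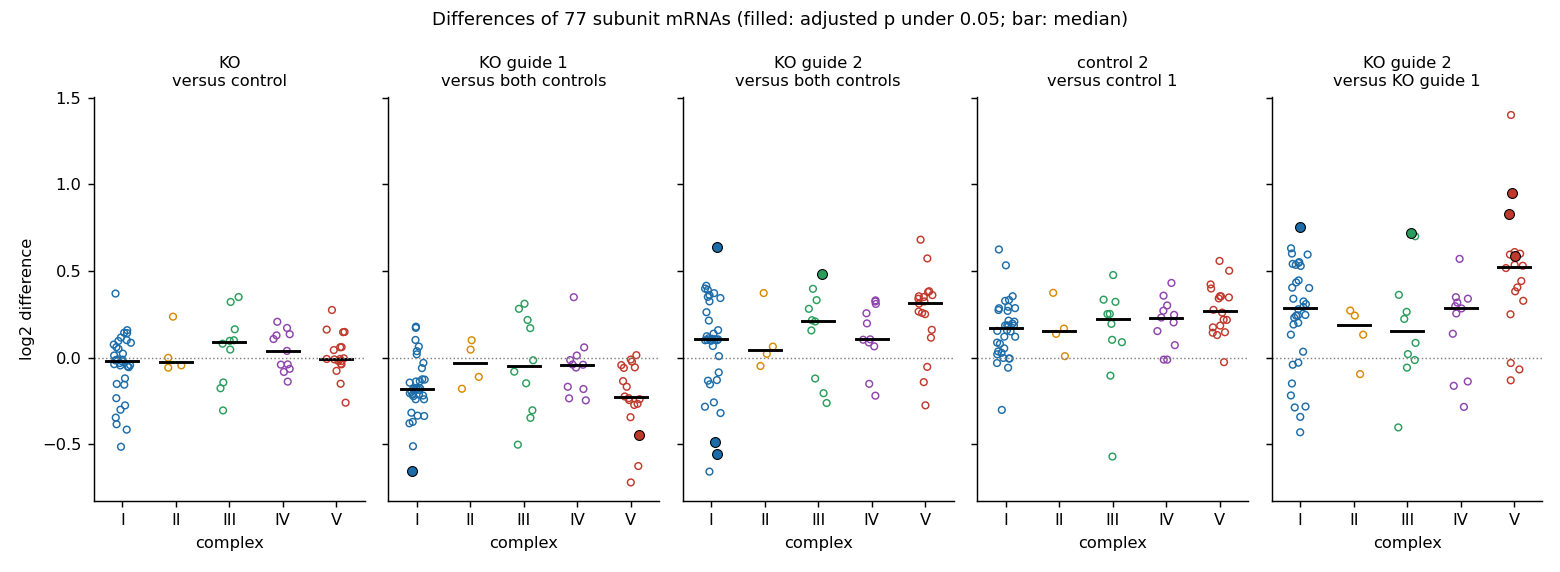
Each panel is a comparison and each point 1 of the 77 tested subunit genes, with the log2 difference on the vertical axis and the complex on the horizontal axis; filled points had a limma adjusted p under 0.05 and bars are medians. The medians of all 5 complexes lie below 0 for KO guide 1 and above 0 for KO guide 2, each against both controls.

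Taken line by line, the medians of the KO lines lay on opposite sides of the mean of both controls, but single libraries overlapped. The median deviation of the first KO-1 library, −0.09, lay between the −0.15 and −0.07 of Control 1. That of the first KO-2 library, 0.08, lay between the 0.01 and 0.21 of Control 2. Against both controls the median of the 77 genes was −0.17 for KO-1, with 16 above 0, and 0.16 for KO-2, with 58 above 0. These comparisons share their control libraries. In pairs that share none, KO-1 minus Control 1 and KO-2 minus Control 2 had medians of −0.06 and 0.05, and 29 of the 77 genes had the same sign in both (37.7%, against 54.7% of all tested genes). KO-1 minus Control 2 and KO-2 minus Control 1 had medians of −0.23 and 0.30, and 18 genes had the same sign (23.4% against 53.6%). The difference KO-2 minus Control 1 was above 0 for 61 of 77 genes, and KO-1 minus Control 2 for 10.

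In KO-1, 2 subunit genes were lower than in both controls, both on chromosome 21, and none was higher. NDUFV3, an accessory subunit beside the NADH-binding site of complex I, was at 677.2 and 649.4 in KO-1 and at 976.4, 1116, 1014 and 1067 in the controls. The KO-1 libraries lay below every other library. Its log2 difference was −0.65 ± 0.12 (limma adjusted p = 0.0151). ATP5PO, which joins the catalytic head of ATP synthase to its stalk, was at 1727 and 1539 against 2189, 2067, 2280 and 2379, a difference of −0.45 ± 0.11 (adjusted p = 0.0495). The call for ATP5PO is close to the threshold and edgeR's quasi-likelihood test put it at an adjusted p of 0.0588. The 2 of 77 stand against 7.01% of all tested genes called in either direction and 3.18% called lower.

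With the replicate block, 12 subunit genes were lower in KO-1 and none higher, against 24.4% of all genes called and 11.4% called lower. They comprised 7 of complex I, 2 of complex III and 3 of complex V, including ATP5PF, UQCR10, NDUFC2 and UQCRC1. No gene of complexes II or IV was called. Without the block, calls in KO-1 were lost when single libraries were left out, among them either KO-1 library. Such fits leave a line with 1 library, and the share of all genes they call is not given here. The change is therefore not read as particular to subunit genes.

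In KO-2, 4 subunit genes differed from both controls. UQCRC2 was higher, at 2791 and 2577 against 2113, 1873, 1832 and 1872, a log2 difference of 0.48 ± 0.11 (limma adjusted p = 0.0239). NDUFB10, an accessory subunit at the end of the membrane arm of complex I, was higher at 1778 and 1855 against 1220, 1116, 1162 and 1169, with 0.64 ± 0.14 (adjusted p = 0.0202). For both genes the KO-2 libraries lay above all other libraries. NDUFB5, another membrane arm subunit, was lower at 675.3 and 660.3 against 1095, 1084, 867.3 and 900.7, with −0.55 ± 0.11 (adjusted p = 0.013). NDUFA8, a disulphide-bonded subunit on the intermembrane side of complex I, was lower at 972.2 and 1015 against 1341, 1329, 1470 and 1434, with −0.49 ± 0.10 (adjusted p = 0.0193). The 4 of 77 stand against 11.2% of all tested genes.

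The replicate block raised the count in KO-2 to 21, of which 17 were higher and 4 lower, against 27.4% of all genes called and 12.5% called higher. The 17 included 6 of complex V, among them ATP5IF1, the natural inhibitor of ATP synthase, at 1352 and 1933 against 947.9 to 1378 in the controls. The 4 lower genes were NDUFB4, NDUFB5, NDUFA8 and NDUFB6, all of complex I. Complex IV had none. Without the block, some calls in KO-2 were lost when a single library was left out, among them either Control 1 library. The share of all genes called in such fits is not given here. The median difference rose from 0.16 to 0.32 without the first KO-2 library and was 0.09 without the second.

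The controls also differed from each other. Subunit genes had a median of 0.20 in Control 2 against Control 1, with 66 of 77 above 0. Between single lines, KO-1 minus Control 2 and KO-2 minus Control 1 had medians larger in size, −0.23 and 0.30. KO-1 minus Control 1 and KO-2 minus Control 2 had smaller ones, −0.06 and 0.05. Between the controls none passed limma's adjusted test, against 2.13% of all genes, while 13 had an unadjusted p under 0.05 (16.9%, against 15.5% of all genes). edgeR called 0 and DESeq2 called 2, against 2.04% and 4.67% of all genes. With the replicate block 6 were called, against 12.5% of all genes. NDUFS6, an accessory subunit of the matrix arm of complex I (0.62), NDUFA9 (0.53), ATP5F1D (0.50), SDHC (0.37) and COX7A2 (0.36) were higher in that fit, and UQCRC1 (−0.57) was lower.

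Between the KO lines the median of KO-2 minus KO-1 was 0.29, with 59 of 77 genes above 0. limma called 5, all higher in KO-2, against 6.94% of all genes called and 2.41% called higher. ATP5PF, a subunit of the stalk of ATP synthase, was at 1661 and 2382 in KO-2 and at 1060 and 998.9 in KO-1, with the controls at 1476, 1545, 1506 and 1850 (log2 difference 0.95 ± 0.19, adjusted p = 0.023). ATP5PO was at 2715 and 3087 in KO-2 (0.83 ± 0.13, adjusted p = 0.0109) and NDUFV3 at 1070 and 1167 (0.75 ± 0.13, adjusted p = 0.0168). For ATP5PO the KO-2 libraries also lay above all controls. For NDUFV3 they lay among or just above the controls, while the KO-1 libraries lay below all others.

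UQCR10, a small subunit of complex III, was at 1154 and 1166 in KO-2, 829.8 and 598.5 in KO-1, and 971.8, 895.5, 1038 and 1100 in the controls (0.72 ± 0.17, adjusted p = 0.0404). ATP5MF was at 2911 and 3059 in KO-2, 2140 and 1842 in KO-1, and 2040, 2229, 2371 and 2752 in the controls (0.59 ± 0.14, adjusted p = 0.0424). In both the KO-2 libraries were the highest of all 8. UQCR10 lost its call when any 1 of the 8 libraries was left out. Over all 77 genes the number of calls also changed with the library left out. Such fits leave a line with 1 library, and the share of all genes they call is not given here.

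**Figure D3:**
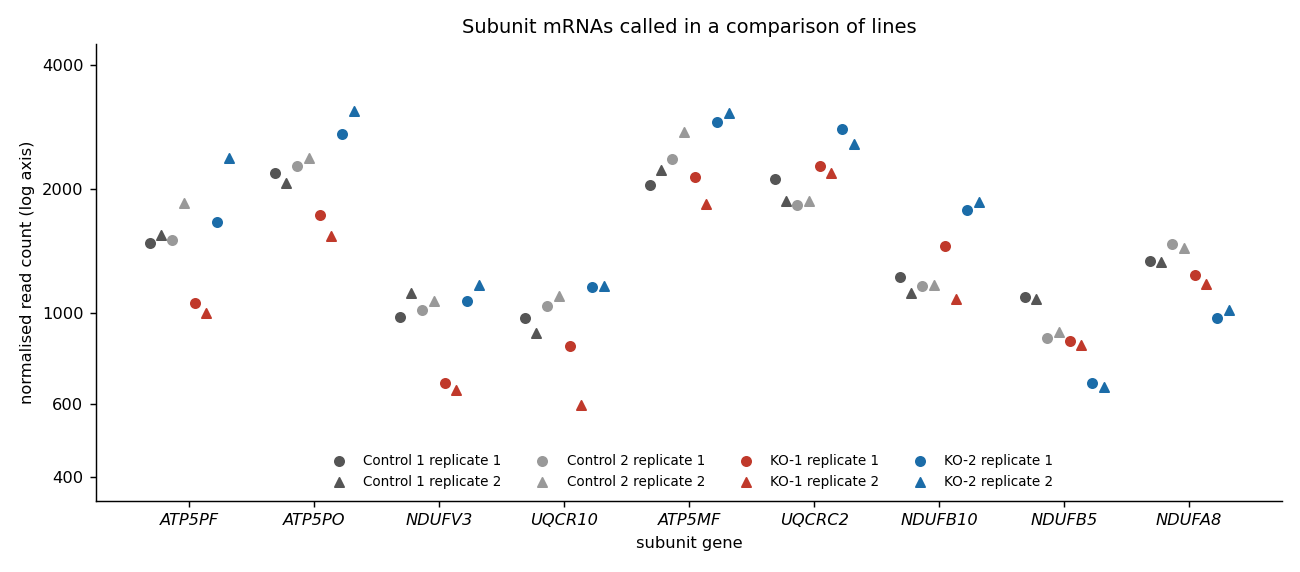
Normalised read counts (log axis) of the 9 subunit genes called in a comparison of lines, with 1 point per library; circles are first and triangles second replicates. ATP5PF, ATP5PO, NDUFV3 and UQCR10 are lowest in the 2 KO-1 libraries, and NDUFB5 and NDUFA8 in the 2 KO-2 libraries.

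With the replicate block 32 subunit genes differed between the KO lines, 29 higher and 3 lower in KO-2, against 24.5% of all genes called and 10.5% called higher. DESeq2 called 15 without a block, all higher, against 9.93% of all genes called and 3.68% called higher. In the blocked fit 13 of the 18 tested genes of complex V were higher and none lower, with a median of 0.52. They spanned the central stalk (ATP5F1D), the c-ring (ATP5MC1, ATP5MC2), the peripheral stalk (ATP5PD, ATP5PF, ATP5PO), small membrane subunits (ATP5ME, ATP5MF, ATP5MG, ATP5MJ, ATP5MK), the inhibitor ATP5IF1 and the sparsely counted ATP5F1E. The counts of ATP5F1E are not read as a level, though the gene is 1 of the 13 and enters the median. ATP5F1A and ATP5F1B, which form the catalytic head, were not among the 13. Complex I had 13 higher and 2 lower of 34, complex III 2 higher and 1 lower of 10, complex IV 1 of 11 (COX6B1, 0.57) and complex II none of 4. The lower genes were NDUFS1, an iron-sulphur subunit of complex I (−0.43), CYC1, which is cytochrome c1 of complex III (−0.40), and NDUFB5 (−0.34).

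Many called genes shared a chromosome whose other genes moved the same way. All 3 tested subunit genes on chromosome 21 (NDUFV3, ATP5PO and ATP5PF) were among the 5 called between the KO lines. The other 139 tested genes of chromosome 21 had a median of 0.39 in that comparison and −0.40 in KO-1 against the controls, where 20.9% were above 0. In KO-2 against the controls the other genes had medians of −0.48 on chromosome 3, which holds NDUFB5 and NDUFB4, −0.38 on chromosome 9, which holds NDUFA8 and NDUFB6, and 0.25 on chromosome 16, which holds UQCRC2 and NDUFB10. All 6 subunit genes called in KO-1 or KO-2 against the controls thus lay on chromosomes whose other genes had a median of the same sign.

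Controls moved by chromosome too: the other genes had a median of −0.44 on chromosome 3 and −0.38 on chromosome 16 in Control 2 against Control 1. The subunit genes of chromosome 16 had a median of −0.01 in that comparison, and UQCRC1, on chromosome 3, was at 2369 and 2026 in Control 2 against 3300 and 3206 in Control 1. A fit of values relative to the median of the other genes on the same chromosome, added after the data were seen, called 0 subunit genes in KO-1 and 0 in KO-2 against the controls, against 4.78% and 7.21% of all genes. Between the KO lines it called 1, UQCR10 (0.74, adjusted p = 0.0451), on chromosome 22, against 3.92%. In KO-1 that fit put NDUFV3 at −0.24 and ATP5PO at −0.03. In KO-2 it put NDUFB10 at 0.40, UQCRC2 at 0.25, NDUFA8 at −0.11 and NDUFB5 at −0.05. Between the KO lines ATP5MF was at 0.56, ATP5PF at 0.54, ATP5PO at 0.42 and NDUFV3 at 0.35, none of which passed. The number of chromosome copies was not measured here.

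**Figure D4:**
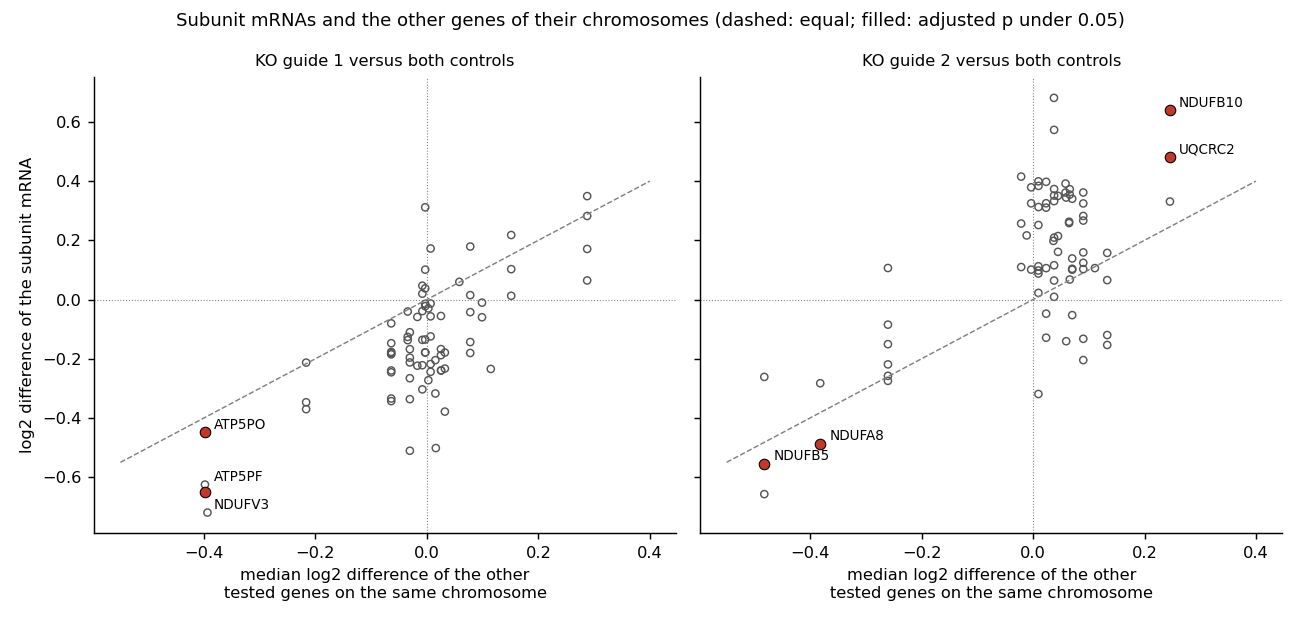
Each point is a tested subunit gene, with its log2 difference to both controls on the vertical axis and the median difference of the other tested genes on its chromosome on the horizontal axis; the dashed line marks equal values. The 6 called genes (filled; ATP5PF, open, is also named) lie where the other genes are at −0.38 or below, or at 0.25.

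Subunit mRNAs are short, and libraries differed in how length related to level. The median mRNA length was 1039 bases for the 77 tested subunit genes and 2995 bases for all tested genes. In the second KO-2 library the 38 shorter subunit mRNAs stood 0.36 above their own means and the 39 longer ones 0.17. In the second KO-1 library they stood −0.27 and −0.15 from them. All tested genes shorter than the subunit median leaned the same way, with 0.27 and −0.15. Across genes Spearman's rho of deviation with length in the second KO-2 library was −0.43 over the 77 and −0.26 over 13669 genes, and in the second KO-1 library 0.39 and 0.26, where genes of 1 library share its depth and are not replicates.

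Some subunit mRNAs, named after their values were seen, were at their lowest in the second KO-2 library. ATP5F1B, the catalytic beta subunit, was at 8433 there against 8973 to 11419 in the other libraries, ATP5F1A at 2958 against 3508 to 4327, SDHA at 3014 against 3185 to 3817, and NDUFS1 at 1137 against 1419 to 1839. In that library the median of all subunit genes was at its highest. Among others picked in the same way, UQCRB was at 3596, its highest of the 8 libraries, and SDHC was at 1679. As a group the 39 longer subunit mRNAs had a median 0.17 above their own means there, below the 0.36 of the 38 shorter ones. After removal of the relation with length in each library, a step added after the data were seen, the median difference of the subunit genes shrank from −0.17 to −0.05 in KO-1, from 0.16 to 0.06 in KO-2, from 0.20 to 0.13 between the controls and from 0.29 to 0.13 between the KO lines. The direction of the medians was the same. ATP5PF, ATP5PO and NDUFV3 kept their calls between the KO lines in that fit and UQCR10 and ATP5MF did not.

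**Figure D5:**
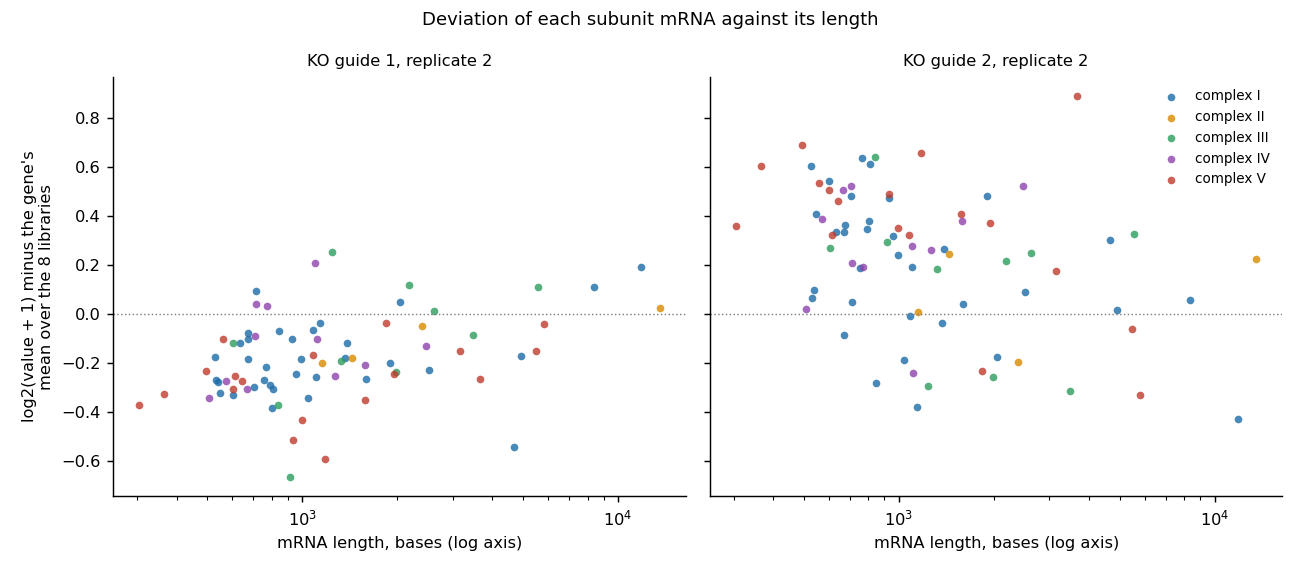
Each point is a tested subunit gene, with its mRNA length in bases (log axis) on the horizontal axis and its log2(value + 1) minus its own mean over the 8 libraries on the vertical axis, in the second replicates of KO-1 and KO-2. In KO-1 most points lie below 0 at short lengths, and in KO-2 most points under 1000 bases lie above 0.

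Replicate numbers also carried a difference. Within lines, 64 of 77 subunit genes were higher in the second replicate of Control 2 (median 0.17), 55 in KO-2 (0.20) and 49 in Control 1 (0.05), but 21 in KO-1 (−0.08). With line in the model limma called 4 genes higher in replicate 2 and none lower, against 17.6% of all genes called and 8.97% called higher. They were COX5B, a subunit of cytochrome c oxidase (0.33 ± 0.10, adjusted p = 0.0359), NDUFB4 (0.31 ± 0.10, adjusted p = 0.0444), NDUFA12, an accessory subunit of complex I (0.31 ± 0.09, adjusted p = 0.0344), and ATP5MK, a small subunit of ATP synthase (0.30 ± 0.09, adjusted p = 0.0381). With equal library totals, which lowers the median of all genes by 0.07, none of these 4 passed, though each kept a positive difference. In that fit 4 other genes were called and all were lower (ATP5F1B, COX7A2L, NDUFS1 and SDHA), against 13.3% of all genes called lower. The number of calls also changed when a single library was left out, and the share of all genes called in those fits is not given here. Of the 13 mitochondrially encoded subunits 7 were higher in replicate 2, by 0.51 for ND6 to 0.67 for ND4L.

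Lists of other genes of respiration were counted in the same fits, by limma's threshold. Over all tested genes it called 7.01% in KO-1 and 11.2% in KO-2 against the controls, and 6.94% between the KO lines. With the replicate block these shares were 24.4%, 27.4% and 24.5%. In KO against control none of the listed genes passed, against 0.235% of all genes. Of 6 respiratory genes outside the symbol rule, 4 were tested and none passed in any comparison. With the replicate block CYCS was lower in KO-1 than in the controls, and NDUFAB1 was higher in KO-2 than in the controls and than in KO-1. Cytochrome c itself (CYCS) was at 4016 and 4350 in KO-1, 4437 and 5963 in KO-2, and 5221 to 6265 in the controls. NDUFA4, now named COXFA4 and therefore outside the rule, was at 2792 to 3176 in all libraries, a value looked up after the others were seen. NDUFA4L2 (COXFA4L2), a hypoxia-inducible relative that is known to be high in clear cell kidney cancer, was near 0 in these cells, at 0.86 to 1.13 in the controls, 6.26 and 8.30 in KO-1 and 2.07 and 6.04 in KO-2, and was not tested.

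Of 56 assembly factors, which build the complexes but are not part of them, none passed in KO-1 against the controls, and 2 were higher and 2 lower in KO-2. SURF1, needed for complex IV (0.52), and NDUFAF1 (0.50) were higher, and ACAD9 (−0.57) and TIMMDC1 (−0.54), both needed for complex I and both on chromosome 3, were lower. Between the KO lines 5 were higher in KO-2, among them UQCC2 (0.86) and UQCC1 (0.68), which serve complex III, and none was lower. The replicate block raised these counts to 10 lower in KO-1, to 10 higher and 5 lower in KO-2, and to 13 higher and 1 lower between the KO lines. The blocked fits called 24.4%, 27.4% and 24.5% of all genes in these comparisons.

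Of 75 tested proteins of the mitochondrial ribosome, which translates the mitochondrially encoded subunits, 5 were lower in KO-1, 1 was higher and 4 lower in KO-2, and 5 were higher in KO-2 than in KO-1. Of all tested genes 7.01%, 11.2% and 6.94% were called in these comparisons. The median of the ribosomal proteins was −0.25 in KO-1, 0.08 in KO-2 and 0.30 between the KO lines, against −0.17, 0.16 and 0.29 for the subunit genes. MRPS26, on chromosome 20, fell by 0.93 in KO-1, and MRPL3 and MRPS22, on chromosome 3, fell by 0.77 and 0.78 in KO-2. With the replicate block 1 was higher and 23 were lower in KO-1, 8 were higher and 9 lower in KO-2, and 28 were higher and 2 lower in KO-2 than in KO-1. The blocked fits called 24.4%, 27.4% and 24.5% of all genes in these comparisons. Of all genes 11.4% were called lower in KO-1, and 10.5% higher in KO-2 than in KO-1. Of 18 genes of the tricarboxylic acid cycle and pyruvate dehydrogenase, 3 were lower in KO-1 (IDH2, PDHB and IDH3B) and 1 lower in KO-2 (SUCLG1). Of 13 genes of coenzyme Q synthesis, 1 was lower in KO-2 (COQ2, −0.68). The block gave 4 lower genes of the cycle in KO-1, 2 lower in KO-2, and 5 higher and 1 lower between the KO lines. For coenzyme Q it gave 1 higher and 2 lower in KO-1 and 1 of each in KO-2. The counts of both lists stand against the shares of all genes just given.

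Regulators and targets of hypoxia signalling gave few calls. Of 11 tested regulators of respiratory genes, none passed between lines without the block. With it GABPA was lower in KO-1 than in the controls and higher in KO-2 than in KO-1. GABPA, whose gene overlaps that of ATP5PF on chromosome 21, was at 400.8 and 388.0 in KO-1 and at 448.7 to 568.9 in the other libraries. Of 8 tested genes that link hypoxia-inducible factors to respiration, 2 were higher in KO-2 than in the controls, against 11.2% of all genes called. They were BNIP3L (0.79) and BNIP3 (0.51), both of which mark mitochondria for removal. BNIP3L was also higher in KO-1 with the block, which called 24.4% of all genes there. The 13 mitochondrially encoded subunits had medians of −0.12 in KO-1 and 0.30 in KO-2 against the controls, and none passed in either. With the block ND5 and ND6 were higher in KO-2 than in the controls and than in KO-1, against 27.4% and 24.5% of all genes called.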

How the data were processed

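The deposited table gives normalised read counts for 8 libraries. Per the submitters' processing notes, the tools were fastp 0.23.2, HISAT2 2.2.1, featureCounts 2.0.1 and DESeq2 2.11.40.8, on hg38 (GRCh38); strand settings are not given in the sources used here. The deposited signal values are read counts divided by 1 size factor per library: whole reads were recovered for 100% of values (within 0.01 of a whole read), which gave the depths and the counts for edgeR and DESeq2. Symbols, biotypes and chromosomes came from RefSeq GRCh38.p14, for 27745 of 28395 rows, and mRNA lengths from GENCODE 29.

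The test was limma 3.58.1 in R 4.3.3 on log2(deposited value + 1), a pseudocount of 1, for the 14040 genes that reached 10 in at least 2 libraries, with Benjamini-Hochberg adjustment over all of them and calls at an adjusted p under 0.05. KO against control took line as a random block (correlation 0.33), and comparisons of lines used a mean per line, with 1 spread over all 8 libraries. Errors are SE of log2 differences or SD over libraries. The fits were also run on simulated counts with set changes, and the outcome is not given here. Those counts had no spread between lines, pairing of replicates, or effects of mRNA length or chromosome. They could therefore not test the block on line or on replicate. Replicate numbers from the titles pair the libraries: the difference between replicates correlated across genes in all 6 pairs of lines (r between 0.285 and 0.501), so the fit with a replicate block is given beside the counts it changes. Alternatives were edgeR 4.0.16 (quasi-likelihood), DESeq2 1.42.0, other pseudocounts, filters and scalings, each library left out, and, added after the data were seen, values relative to the chromosome median and adjusted for mRNA length. In KO against control the edgeR and DESeq2 fits held the arm only, without line.

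The subunit genes and all gene lists were chosen with earlier results of these data known. Named are ANXA4, every subunit gene called in a comparison (and, in KO against control, the 3 largest differences in each direction), those that failed the filter, isoform pairs, the highest and lowest per complex, and called genes of other lists, at most 5 per list and comparison. Genes outside this rule, such as those called only with the block, were named after their values were seen.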

Additional observations from a re-analysis of the deposited data

Results flagged for a closer look

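Groups of 4 libraries were searched for 1 library apart from the other 3. For independent values chance gives about 1 in 20, but these groups share libraries and pair replicates of a line, so that rate need not hold. In 4 of the 44 groups 1 library stood apart. The gap of that library to its nearest neighbour, as a share of the group's range, was 0.853 for UQCRC2 in the controls (2113 in the first Control 1 library), 0.925 for NDUFB4 in the KO libraries (1030 in the first KO-2 library), 0.942 for NDUFA12 in the KO libraries (1329 in the second KO-2 library) and 0.940 for the sum of the 13 mitochondrially encoded subunits in the KO libraries (1798570 in the second KO-2 library).

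The difference to the controls was not the same in the 2 KO lines for 5 subunit genes, by limma's test of KO-2 against KO-1. The log2 difference between the lines was 0.95 for ATP5PF, 0.83 for ATP5PO, 0.75 for NDUFV3, 0.72 for UQCR10 and 0.59 for ATP5MF. ANXA4 itself differed by 3.998 between these lines.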

How the results depend on the processing

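With the replicate block the number of subunit genes called was 0 in KO against control, 12 for KO-1 and 21 for KO-2 against the controls, 6 between the controls and 32 between the KO lines. In that order the blocked fits called 0.264%, 24.4%, 27.4%, 12.5% and 24.5% of all genes. For KO-1 the number of subunit genes called was 1 at a pseudocount of 0.1, without a filter, with TMM scaling, with equal totals without mitochondrial genes and with edgeR. There edgeR called 7.57% of all genes. For KO-2 the number was 7 with equal totals without mitochondrial genes and with DESeq2, which called 13.1% of all genes. Between the KO lines the number was 3 without a filter and 15 with DESeq2, between the controls 2 with DESeq2, and between replicates 2 without a filter and with equal totals without mitochondrial genes. DESeq2 called 9.93% of all genes between the KO lines and 4.67% between the controls. For the other pseudocount, filter and scaling fits the share of all genes is not given here. Their counts are not read as a result about subunit genes. KO against control gave 3 with the spread within lines only, against 10.5% of all genes. Relative to the chromosome median the counts were 0 for KO-1, 0 for KO-2 and 1 between the KO lines, against 4.78%, 7.21% and 3.92% of all genes. With adjustment for mRNA length the medians were −0.048 for KO-1 and 0.13 between the KO lines. With 1 library left out the counts ran from 0 to 3 for KO-1, 0 to 6 for KO-2, 0 to 1 between the controls, 0 to 13 between the KO lines and 0 to 13 between replicates, and the medians from 0.093 to 0.32 for KO-2 and from 0.22 to 0.41 between the KO lines. The cause was not tested. The 15 calls of single genes kept their side of the threshold in 188 alternative fits, lost it in 108 and kept their direction in all of these. DESeq2 and a filter on a mean of 50 lost none, and the chromosome median lost 10. The replicate block lost none of the 11 calls between lines. Counting error limits only the sparsely counted genes, such as ATP5F1E.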
